A study of Homo sapiens with 6 samples.

Results

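The aryl hydrocarbon receptor pathway is described here by 9 genes in A375 cells, an established human melanoma line, of 25662 genes in the deposited table. The genes are the receptor AHR, its DNA-binding partner ARNT, the repressor AHRR, the cytochrome P450 genes CYP1A1, CYP1A2 and CYP1B1, and the further targets TIPARP, NQO1 and ALDH3A1. They were chosen by gene symbol, with the difference between BMH-21 and control libraries already known, so that difference is given for them as a description without a test. Cells in the BMH-21 group were grown with 1 µM BMH-21 for 24 hours, and control cells with the solvent DMSO. The sample titles call the controls 0 hours, and how long they were cultured is therefore unclear. Each group has 3 libraries, which the submitters describe as biological replicates of this 1 line. BMH-21 is a flat small molecule that intercalates into DNA and inhibits RNA polymerase I. The values are TPM, a level relative to all transcripts of the library and corrected for transcript length, which can be compared between genes, and their read depth is unknown. In RNA from whole cultures, more RNA per cell and more cells that express a gene cannot be told apart.

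AHR is a transcription factor of the bHLH-PAS family that is switched on by small, often flat aromatic ligands. Without ligand it is held in the cytoplasm by HSP90 and helper proteins. With ligand it moves to the nucleus, pairs with ARNT and binds a short DNA element with the core GCGTG, which raises transcription of CYP1A1 and other genes of foreign-compound metabolism. AHRR and TIPARP are targets that feed back on the receptor, AHRR by competing for ARNT and for the element, and TIPARP by ADP-ribosylation of the receptor. In skin, tryptophan products made by ultraviolet light are among its ligands. Receptor protein, its place in the cell and its binding to DNA were not measured.

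Promoter sequence is shown because CYP1A1 and CYP1A2 are neighbours with very different levels below, and because CYP1A1, AHRR and TIPARP were all higher after BMH-21. These genes were thus picked by their levels, so nothing about their change is read from the letters. In RefSeq positions on GRCh38.p14, CYP1A1 lies on chromosome 15 (74719542 to 74725528, minus strand) and CYP1A2 23316 bases away (74748845 to 74756607, plus strand). The 250 bases before each start follow, 5′ to 3′ on the strand of the gene, with the letters GCGTG, or CACGC on the other strand, in capitals.
CYP1A1, chr15:74725529-74725778: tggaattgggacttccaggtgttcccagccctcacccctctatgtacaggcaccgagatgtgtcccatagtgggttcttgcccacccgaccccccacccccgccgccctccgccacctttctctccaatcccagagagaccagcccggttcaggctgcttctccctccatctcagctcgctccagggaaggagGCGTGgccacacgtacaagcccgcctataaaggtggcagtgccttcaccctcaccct
CYP1A2, chr15:74748595-74748844: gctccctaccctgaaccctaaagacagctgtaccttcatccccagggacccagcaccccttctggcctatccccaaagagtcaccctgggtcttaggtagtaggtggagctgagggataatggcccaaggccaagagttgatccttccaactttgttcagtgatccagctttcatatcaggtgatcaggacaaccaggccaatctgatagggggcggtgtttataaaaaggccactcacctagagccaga

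The core was found once in the CYP1A1 window, with its first base at position -57 from the start, and not in the CYP1A2 window. It was also present before the starts of AHRR and TIPARP, in the following stretches of the plus strand, and once more at position -247 from the second AHRR start.
AHRR, first start, chr5:321672-321700: ggcgggcggctcGCGTGccggggtggggc
AHRR, second start, chr5:322556-322584: gcagaagggtggGCGTGtgcgcgcgttct
TIPARP, first start, chr3:156674370-156674398: cgcgagaaaggaCACGCcccctcgcggga
TIPARP, first start, chr3:156674436-156674464: cgaacgaacgcgCACGCgcgcgcaggggg

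RefSeq promoter windows were matched for 7 of the 9 genes, in 10 windows. CYP1B1 and ALDH3A1 had no window and were not searched. Of these 7 genes, 3 held GCGTG on either strand within the 250 bases before a start, and 5 held it when the 50 bases after the start were added, AHR and NQO1 being the additional ones. Counted by window, 4 of the 10 held it over the 250 bases and 6 over the 300 bases, where 32.2% and 36.5% of all 35116 promoter windows did. The longer form TNGCGTG, which contains the core and where N is any base, was found before a start of AHRR alone among these genes, and in 4.52% of all windows. The core of the NRF2 element, TGACNNNGC, was found in the 300-base window of ARNT and of no other matched member, against 13.3% of all windows. A match is a description of letters and not of a bound site, and distal elements, where the best-known sites of CYP1A1 lie, are outside these windows.

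The receptor itself was low and somewhat higher after BMH-21. AHR (chromosome 7, 17298652 to 17346147) had 6.44, 4.60 and 6.15 TPM in BMH-21 replicates 1 to 3, against 3.12, 3.57 and 4.40 TPM in control replicates 1 to 3. The lowest BMH-21 library stood just above the highest control, and the ratio of mean TPM was 1.55. The difference on the log2(TPM + 1) scale, called the log2 difference from here on, was 0.52 ± 0.18 (standard error). The median over all 12481 genes with a mean of at least 1 TPM was 0.19, and differences are best read against it.

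ARNT, the partner that AHR shares with the hypoxia factors, was expressed above AHR in every library. It had 15.8, 20.2 and 16.5 TPM with BMH-21 and 14.75, 11.99 and 13.54 TPM in controls (chromosome 1, 150809713 to 150876599). The groups did not overlap, but the gap between them was narrower than the range within either group. The log2 difference of ARNT was 0.36 ± 0.14. Median-of-ratios scaling, which lowers the median of all genes to 0.02, gave 0.17, and without both number 2 libraries, where that median was 0.12, it was 0.18.

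AHRR, the feedback repressor, stood clearly apart. It had 27.1, 30.0 and 26.2 TPM with BMH-21, against 12.6, 7.39 and 11.5 TPM in controls (chromosome 5, 321714 to 438285). Every BMH-21 library lay above every control, with a ratio of mean TPM of 2.65 and a log2 difference of 1.35 ± 0.19. Control replicate 2 was the lowest, and without it the log2 difference was 1.14. The neighbouring gene PDCD6, on the same strand and overlapping AHRR in GENCODE 29, was at 215.9 to 227.6 TPM with BMH-21 and 140.5 to 162.3 TPM in controls. A read-through gene that joins AHRR to its neighbour PDCD6 was listed at 0.311, 0.626 and 0.501 TPM with BMH-21 and 0.310, 0.101 and 0.210 TPM in controls. How reads were shared among PDCD6, PDCD6-AHRR and AHRR was not tested.

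TIPARP, also named PARP7, is the other feedback gene. It had 40.4, 31.9 and 45.7 TPM with BMH-21 and 12.7, 8.83 and 11.7 TPM in controls (chromosome 3, 156674590 to 156706770). The groups were far apart, with a ratio of mean TPM of 3.56 and a log2 difference of 1.74 ± 0.17. The divergent non-coding gene TIPARP-AS1 overlaps its start in GENCODE 29 and had 4.15, 3.56 and 3.62 TPM with BMH-21, against 1.65, 2.67 and 3.24 TPM in controls. Strand use in counting is not given in the sources used here. Whether reads from stretches shared by such genes on opposite strands were told apart is therefore unknown, and overlap of their exons was not examined.

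CYP1A1, the P450 enzyme that oxidises polycyclic aromatic compounds and the usual readout of the receptor, showed the widest separation of the 9 genes. It had 78.1, 84.9 and 78.1 TPM with BMH-21, against 6.46, 5.46 and 5.51 TPM in controls. The ratio of mean TPM was 13.8 and the log2 difference 3.58 ± 0.11. Spread within a group was small, with a coefficient of variation of 4.91% with BMH-21 and 9.78% in controls. Among 49 P450 genes in the table, CYP1A1 had the highest mean TPM in BMH-21 libraries and rank 4 in controls.

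CYP1B1, the related P450 of steroid and aromatic metabolism, was expressed at a much lower level than CYP1A1. It had 2.50, 2.37 and 2.96 TPM with BMH-21 and 0.184, 0.184 and 0.660 TPM in controls (chromosome 2, 38067509 to 38076151). Control replicate 3 stood above the other controls, yet well below every BMH-21 library. The ratio of mean TPM was 7.61, and the log2 difference of 1.44 ± 0.18 understates it because of the pseudocount of 1. With a pseudocount of 0.1 that difference was 2.77.

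Annotated on the opposite strand across CYP1B1, the non-coding gene CYP1B1-AS1 had 2.12, 1.94 and 2.78 TPM with BMH-21, against 0.952, 0.286 and 0.449 TPM in controls. It was thus at nearly the level of CYP1B1 itself with BMH-21. RMDN2, a protein-coding gene that also overlaps CYP1B1 on the other strand, had 1.81, 0.783 and 1.56 TPM with BMH-21 and 0.623, 0.825 and 0.758 TPM in controls. The part of CYP1B1-AS1 and RMDN2 in the CYP1B1 value was not tested.

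CYP1A2, the liver-type member of the family, was listed at 0.0240, 0.0296 and 0 TPM with BMH-21 and at 0 in all 3 controls. These values are too low for a fold or a test, and at the unknown depth a difference was not detectable. The gene next to it, CYP1A1, was at 78.1 TPM or more in the same BMH-21 libraries.

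NQO1, a quinone reductase that the NRF2 pathway also controls, was by far the most abundant of the 9. It had 1471, 1559 and 1523 TPM with BMH-21, against 1025, 1269 and 1119 TPM in controls (chromosome 16, 69709401 to 69726560). No BMH-21 library fell in the control range, and the ratio of mean TPM was 1.33. The log2 difference was 0.42 ± 0.10 against a median of 0.19 over all tested genes, and 0.22 with median-of-ratios scaling against a median of 0.02. NQO1 made up between 89.62% and 89.95% of the summed TPM of the 9 genes with BMH-21 and between 95.4% and 97.1% in controls.

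ALDH3A1, an aldehyde dehydrogenase known as a receptor target in liver, was not detected in most libraries. It was listed at 0, 0.182 and 0 TPM with BMH-21 and at 0, 0 and 0.176 TPM in controls (chromosome 17, 19737984 to 19748298). It was left out of the fit together with CYP1A2.

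**Figure D1:**
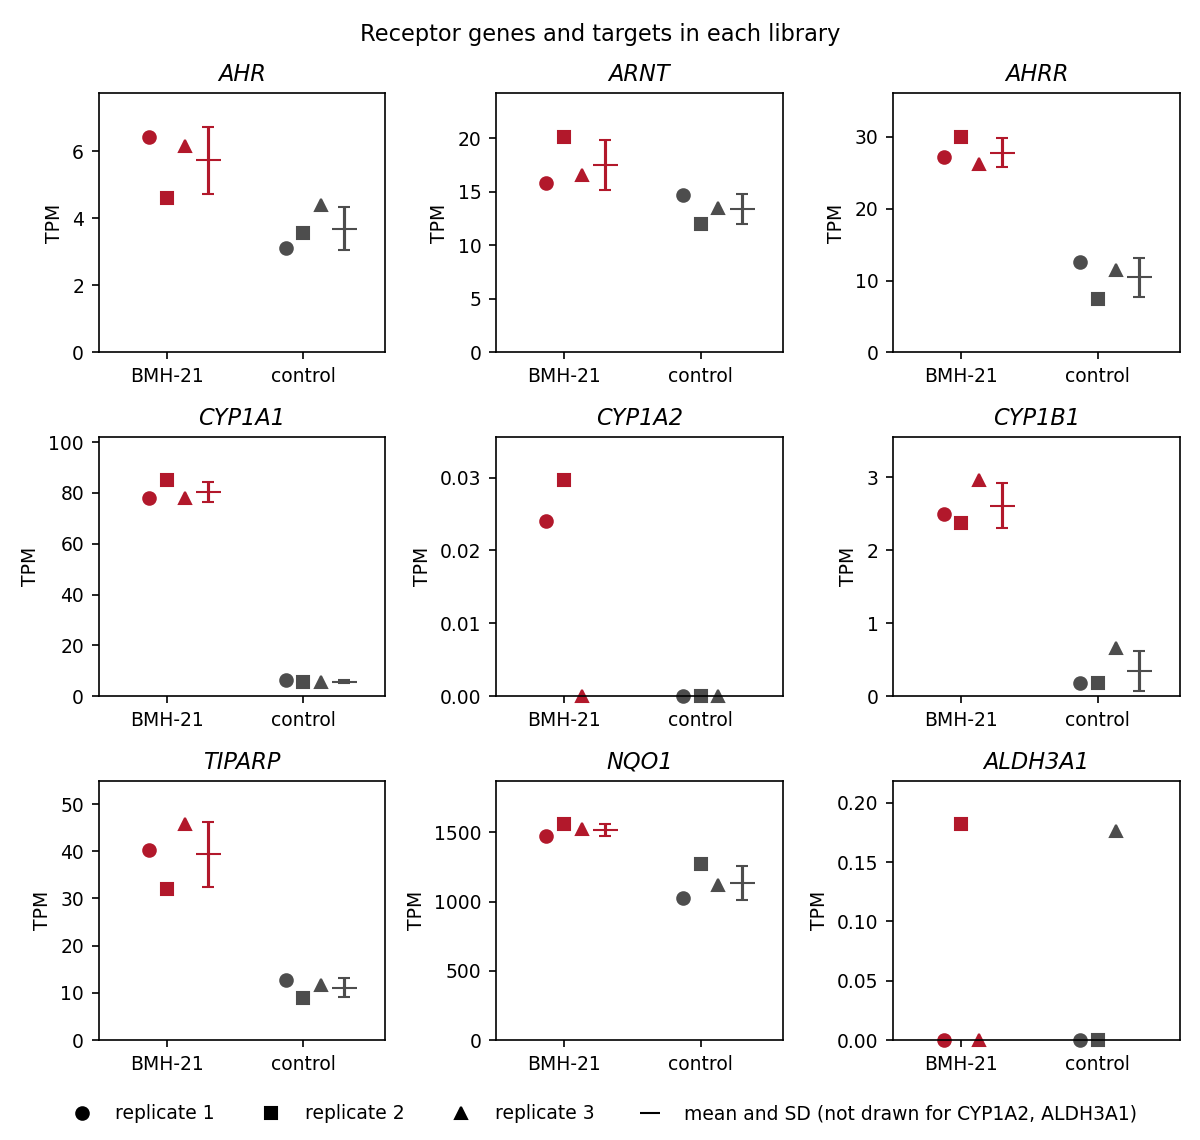
TPM of the 9 genes in each library, with BMH-21 on the left and control on the right of each panel and a linear axis from 0. Symbols mark the replicate number, and the bars give the mean and standard deviation of 3 libraries; CYP1A1 lies between 78.1 and 84.9 TPM with BMH-21 and between 5.46 and 6.46 TPM in controls.

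The 7 genes that reached a mean of 1 TPM were all higher in every BMH-21 library than in any control. Of all tested genes 35.0% were, and 52.3% had groups that did not overlap in either direction. In the limma fit over all genes 5 of the 7 were called higher at an adjusted p under 0.05 and none lower, against 23.3% and 12.9% of all tested genes, or 36.2% in either direction. Since the genes were chosen on this contrast, and CYP1B1 passes the level filter through its BMH-21 values, nothing is read from these counts. By size of log2 difference among the 12481 tested genes, CYP1A1 had rank 4, TIPARP 135, CYP1B1 222 and AHRR 262. AHR, NQO1 and ARNT had ranks 2747, 3639 and 4312. For comparison, the highest 5% of all tested genes began at a log2 difference of 0.98 and the highest 1% at 1.78.

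The most abundant gene, NQO1, and the receptor pair had differences under 0.6. The 4 genes above 1 had control means between 0.343 TPM (CYP1B1) and 11.1 TPM (TIPARP). AHR (control mean 3.70 TPM) lay within that range, and ARNT (13.4 TPM) and NQO1 (1138 TPM) lay above it. With the pseudocount of 1, TIPARP (1.74 ± 0.17), CYP1B1 (1.44 ± 0.18) and AHRR (1.35 ± 0.19) each differed from the next by less than the sum of their standard errors, as did AHR, NQO1 and ARNT. CYP1A1 and TIPARP, and AHRR and AHR, were further apart than that. The order depends on the pseudocount, since at 0.1 CYP1B1 (2.77 ± 0.43) stood above TIPARP (1.82 ± 0.18) by more than the summed errors, with AHRR at 1.43 ± 0.20.

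**Figure D2:**
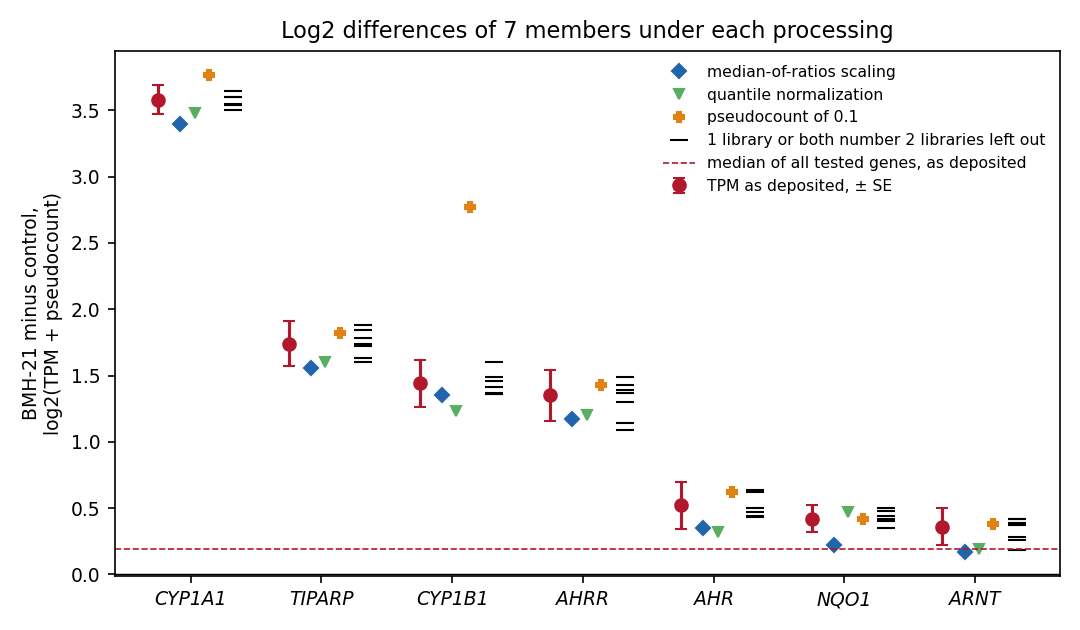
Log2 difference, BMH-21 minus control, of the 7 fitted genes on the vertical axis, under TPM as deposited (circle with standard error) and under other scalings, another pseudocount and left-out libraries. CYP1A1 stays between 3.40 and 3.77, while ARNT (0.17 to 0.42) and NQO1 (0.22 to 0.50) have their lowest values under median-of-ratios scaling, where the median of all tested genes is 0.02, against 0.19 with TPM as deposited (dashed line).

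Ratios of the deposited TPM of 2 genes within a library are not altered by a scaling factor per library, though quantile normalization would change them. The ratio of CYP1A1 to ARNT was 4.93, 4.21 and 4.72 with BMH-21, against 0.438, 0.455 and 0.407 in controls. To HSP90AB1, a chaperone of the receptor with similar levels in both groups, it was 0.0846, 0.0832 and 0.0802 with BMH-21 and 0.00655, 0.00684 and 0.00668 in controls. Relative to AHRR, CYP1A1 was at 2.90 ± 0.0799 with BMH-21 and 0.578 ± 0.140 in controls (SD, n = 3 each), so the 2 targets differed in the size of their change. No overlap was seen in these ratios.

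Other ratios overlapped between the groups. CYP1A1 to CYP1B1 was 31.3, 35.8 and 26.4 with BMH-21 and 35.2, 29.6 and 8.35 in controls. TIPARP to AHRR was 1.49, 1.06 and 1.75 with BMH-21 and 1.008, 1.195 and 1.020 in controls. NQO1 to ARNT was 92.9, 77.3 and 92.0 with BMH-21 and 69.5, 105.8 and 82.7 in controls, and AHR to ARNT was 0.406, 0.228 and 0.372 with BMH-21 and 0.211, 0.298 and 0.325 in controls. In these 4 ratios the control range reached into that of BMH-21.

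**Figure D3:**
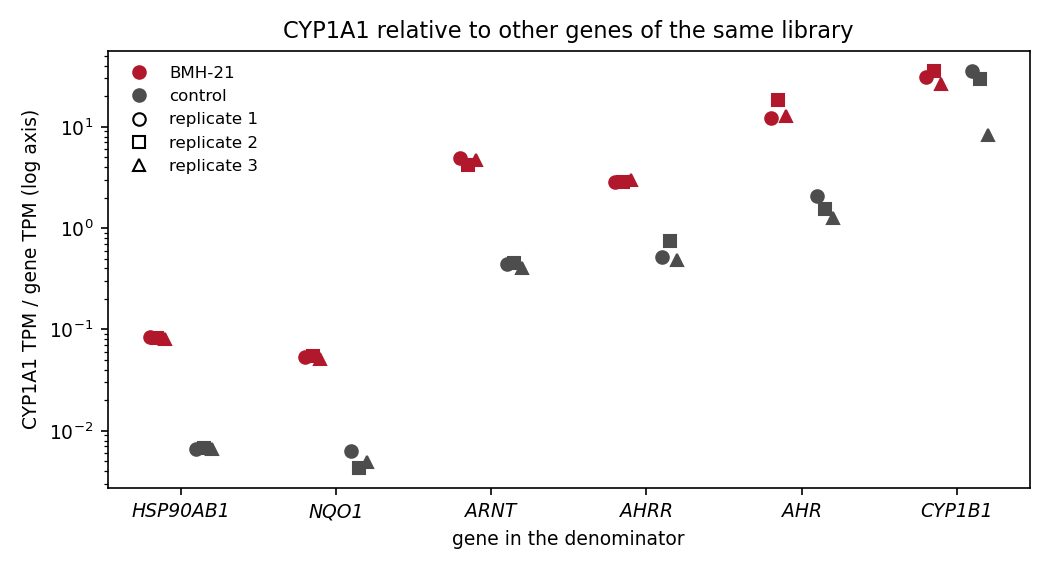
TPM of CYP1A1 divided by the TPM of another gene of the same library, on a log axis, with BMH-21 (red) left of control (grey) for each gene. The groups are apart for HSP90AB1, NQO1, ARNT, AHRR and AHR and overlap for CYP1B1.

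Replicates did not deviate alike across the genes. BMH-21 replicate 2 held the lowest AHR (4.60 TPM) and TIPARP (31.9 TPM) of its group and the highest ARNT (20.2 TPM), AHRR (30.0 TPM), CYP1A1 (84.9 TPM) and NQO1 (1559 TPM). Control replicate 2 had the lowest ARNT, AHRR and TIPARP of its group and the highest NQO1 (1269 TPM). That control library also differed in its overall make-up, with 7.61% mitochondrially encoded TPM against 10.9% to 14.6% in the other 5 libraries. Whether this make-up has a part in the control values of the pathway was not tested. Without both number 2 libraries the log2 differences of CYP1A1, TIPARP, CYP1B1 and AHRR were 3.50, 1.74, 1.41 and 1.09.

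Similarity to CYP1A1 over the 6 libraries is given as Pearson's r of log2(TPM + 1), a description without a test, since all libraries fall into 2 groups and r mostly reflects the group difference. Among the fitted members r with CYP1A1 was 0.973 for TIPARP, 0.965 for CYP1B1, 0.959 for AHRR, 0.904 for NQO1, 0.830 for ARNT and 0.812 for AHR. Among 840 genes with at least 5 TPM in the higher group and a log2 difference of at least 1 in size, 122 had an r of at least 0.99. The closest 5 were the long non-coding gene LNCTAM34A, the Wnt ligand gene WNT9A, the small GTPase gene RHOB, the adhesion gene NECTIN4 and the dynein-related gene DNHD1, with r from 0.9995 to 0.9998. LNCTAM34A had 24.96, 27.77 and 26.76 TPM with BMH-21 and 1.93, 1.63 and 1.73 TPM in controls.

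Of 12 tested chaperones and coactivators of the receptor, 2 rose, 1 fell and 9 were not called, where 23.3% of all tested genes rose and 12.9% fell, so these counts were near the background. Their median log2 difference was 0.21, against 0.19 over all tested genes. Median-of-ratios scaling gave 1 rise and 2 falls. No partner rose without BMH-21 replicate 1 or 3, and 5 did without control replicate 1. HSP90AB1, the most abundant partner, averaged 972 ± 49.2 TPM with BMH-21 and 870 ± 103 TPM in controls (SD, n = 3 each; limma adjusted p = 0.236), and was called higher without control replicate 1 (0.0414).

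The co-chaperone PTGES3, known as p23, had 136.8, 129.0 and 135.1 TPM with BMH-21 and 231.1, 118.3 and 216.3 TPM in controls. Control replicate 2 fell below the BMH-21 libraries, and PTGES3 was called lower without it (limma adjusted p = 0.000531) but not with all libraries (0.167). Median-of-ratios scaling also called it lower (0.0253). HSP90AA1 ranged from 13.3 to 58.2 TPM with BMH-21 and from 25.9 to 57.3 TPM in controls, and was not called (0.669).

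Among coactivators, NCOA3 rose to 4.45 ± 0.162 TPM with BMH-21, against 2.23 ± 0.711 TPM in controls (SD, n = 3 each; limma adjusted p = 0.0160). Its call was lost without BMH-21 replicate 1 (0.0531) or 3 (0.0569). NCOA1 passed narrowly (0.0499) and lost the call in 11 of the 12 alternatives that tested it. CREBBP and EP300, acetyltransferases that many transcription factors recruit, had log2 differences of 0.79 ± 0.28 and 0.76 ± 0.31 and were not called (limma adjusted p = 0.0582 and 0.0855). CREBBP was called higher without control replicate 1 (0.0276) or 2 (0.0421), and EP300 without control replicate 1 (0.0436).

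Among relatives of AHR and ARNT in the bHLH-PAS family, 1 of 6 tested genes rose and 0 fell, against 23.3% and 12.9% of all tested genes. The clock factor gene NPAS2 rose to 131.8, 161.5 and 132.1 TPM with BMH-21, against 104.8, 54.2 and 93.3 TPM in controls (log2 difference 0.79 ± 0.23, limma adjusted p = 0.0272). Leaving out any one of the BMH-21 libraries ended that call (0.0544 to 0.0645), as did fitting without a filter (0.0742). ARNT2, which can take the place of ARNT, had 69.5, 73.9 and 67.8 TPM with BMH-21 and 67.2, 52.5 and 66.6 TPM in controls (0.232). ARNT2 therefore lay above ARNT in every library, at 4.05 ± 0.364 times its TPM with BMH-21 and 4.62 ± 0.276 times in controls (SD, n = 3 each). HIF1A, the hypoxia factor that pairs with ARNT, averaged 10.1 ± 3.33 TPM with BMH-21 and 6.81 ± 1.43 TPM in controls (limma adjusted p = 0.172), and was called higher without BMH-21 replicate 2 (0.0240). NPAS1, a neuronal relative, averaged 12.6 ± 2.10 TPM with BMH-21 and 17.0 ± 4.44 TPM in controls (SD, n = 3 each; limma adjusted p = 0.181), and was called lower without control replicate 2 (0.0166), with median-of-ratios scaling (0.0336) and with quantile normalization (0.0370).

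Further genes reported as receptor targets in human or mouse cells were mixed. Of 26 measured genes 14 were tested, and 5 rose, 1 fell and 8 were not called, where 23.3% of all tested genes rose and 12.9% fell. Their median log2 difference was 0.30, against 0.19 over all tested genes. Median-of-ratios scaling left 3 rises and 1 fall, and 3 rises were left without BMH-21 replicate 1 or 2. BAX, SLC7A5 and IL1B held their calls in all 13 alternatives.

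IL1B, an inflammatory cytokine gene, rose to 8.79, 9.04 and 8.75 TPM with BMH-21, against 1.89, 0.742 and 0.876 TPM in controls (log2 difference 2.22 ± 0.21, limma adjusted p = 0.000152). BAX, a pore-forming apoptosis gene that p53 also activates, rose to 509 ± 5.63 TPM with BMH-21, against 169.9 ± 16.1 TPM in controls (SD, n = 3 each; limma adjusted p = 1.34e-05). SLC7A5, a large neutral amino acid transporter that also carries the tryptophan product kynurenine, rose to 160.3, 175.4 and 148.2 TPM with BMH-21, against 96.4, 62.0 and 87.0 TPM in controls (log2 difference 0.99 ± 0.16, limma adjusted p = 0.00242). In all 3 genes the groups were well apart.

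The other calls were less stable. The stanniocalcin gene STC2 and the RAS activator SOS1 rose, with limma adjusted p of 0.0252 and 0.0445, and lost their calls in 7 and 9 of the 12 alternatives that tested them. HES1, a Notch-responsive repressor, fell to 21.6 ± 1.16 TPM with BMH-21, against 31.2 ± 5.20 TPM in controls (SD, n = 3 each; limma adjusted p = 0.0239). Its call was lost without BMH-21 replicate 1 or 3 or control replicate 1 or 3 (adjusted p from 0.0640 to 0.0878). NFE2L2, which encodes NRF2, had 8.30 ± 1.22 TPM with BMH-21 and 6.83 ± 1.05 TPM in controls (limma adjusted p = 0.260).

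Of the reported targets, 12 lay below the level filter, with no single value above 1.18 TPM. CYP2S1, a P450 gene of epithelia, had 0.101, 0.173 and 0.0719 TPM with BMH-21 and 0.693, 0.673 and 0.444 TPM in controls. The differentiation factor gene PRDM1 had 0.906, 1.12 and 1.16 TPM with BMH-21 and 0.231, 0.0396 and 0.166 TPM in controls. Both sets of libraries were apart, in opposite directions, at levels where the depth behind them is not known. The conjugating enzymes UGT1A1 and UGT1A6 were listed at 0 in most libraries.

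Enzymes that make receptor ligands from tryptophan were nearly silent at the first step. IDO1, IDO2 and TDO2 did not exceed 0.179 TPM in any library, and KMO and HAAO were listed at 0 throughout. Of 7 tested genes of the list, 3 rose and 2 fell (median log2 difference 0.05), beside 23.3% and 12.9% of all tested genes. The list also holds the transporter chains SLC7A5 and SLC3A2, which are not enzymes and were among the rises. Without BMH-21 replicate 1 or 3 there were 2 rises and 1 fall, and with median-of-ratios scaling 2 rises and 2 falls. SLC3A2, the partner chain of SLC7A5, rose to 224 ± 4.02 TPM with BMH-21, against 160.9 ± 13.9 TPM in controls (SD, n = 3 each; limma adjusted p = 0.00436). AADAT, an aminotransferase of the kynurenine route, fell to 3.92 ± 0.368 TPM, against 7.21 ± 0.982 TPM in controls (SD, n = 3 each; limma adjusted p = 0.00770).

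NRF2 controls NQO1 as well, so its system is set beside it. Of 19 tested genes 7 rose, 1 fell and 11 were not called (median log2 difference 0.25), beside 23.3% higher and 12.9% lower over all tested genes. Rises numbered 3 with median-of-ratios scaling and without BMH-21 replicate 1 or 3. MAFG, a small DNA-binding partner of NRF2, rose to 49.6 ± 3.39 TPM with BMH-21, against 28.4 ± 3.83 TPM in controls (SD, n = 3 each; limma adjusted p = 0.00193). TALDO1, of the pentose phosphate pathway, fell to 123.7 ± 4.05 TPM, against 164.6 ± 15.9 TPM in controls (SD, n = 3 each; limma adjusted p = 0.0111), and lost the call without BMH-21 replicate 1 (0.0603). The ferritin gene FTL, the most abundant of the list, averaged 2139 ± 17.1 TPM with BMH-21 and 1800 ± 128 TPM in controls (SD, n = 3 each; limma adjusted p = 0.0545), and was called higher without control replicate 2 (0.0108).

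Hypoxia targets depend on ARNT with another partner. Of 15 tested genes 4 rose and 1 fell (median log2 difference 0.12), near the 23.3% and 12.9% of all tested genes, and median-of-ratios scaling gave 3 falls. Falls numbered 2 without control replicate 2, and 0 when any one of the BMH-21 libraries or control replicate 1 was left out. ANGPTL4, a secreted regulator of lipid use, rose to 20.0, 19.5 and 17.2 TPM with BMH-21, against 9.54, 8.50 and 8.76 TPM in controls (log2 difference 1.00 ± 0.12, limma adjusted p = 0.000624). LDHA, the most abundant of them, averaged 906 ± 115 TPM with BMH-21 and 842 ± 36.9 TPM in controls (SD, n = 3 each), with no call. The fall of PDK1, a kinase that slows pyruvate oxidation (limma adjusted p = 0.0396), was lost when any one of the BMH-21 libraries or control replicate 1 or 2 was left out (0.0679 to 0.108).

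Within the families of the members, single genes moved in both directions. Of 16 tested genes among the other P450s and their electron donors, 4 rose and 3 fell (median log2 difference 0.11), beside 23.3% and 12.9% of all tested genes, while 33 lay below the level filter. Of the 4 that rose, CYP4F3, CYP2E1 and CYP2U1 had control means under 1 TPM and passed that filter through their BMH-21 values, so nothing is read from their calls. With a filter at 5 TPM 1 gene rose. CYP4F3, a fatty acid hydroxylase, was listed at 5.18, 4.48 and 6.37 TPM with BMH-21 and at 0.0320, 0 and 0.0547 TPM in controls. Its close relative CYP4F2 averaged 1.77 TPM with BMH-21 and was at 0 in 2 controls, and reads could be shared between these similar genes. CYB5R3, a cytochrome b5 reductase and the most abundant of the list, averaged 159.8 ± 13.7 TPM with BMH-21 and 143.0 ± 32.3 TPM in controls (SD, n = 3 each; limma adjusted p = 0.416). CYP27A1, a sterol hydroxylase of mitochondria, fell to 7.51 ± 0.744 TPM with BMH-21, against 13.9 ± 2.31 TPM in controls (SD, n = 3 each; limma adjusted p = 0.00609).

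Of 13 tested relatives of TIPARP among the ADP-ribosyltransferases, 2 rose and 2 fell (median log2 difference 0.29), beside 23.3% and 12.9% of all tested genes. Without BMH-21 replicate 2 there were 4 rises. PARP10 rose to 28.9 ± 2.18 TPM with BMH-21, against 14.7 ± 2.66 TPM in controls (SD, n = 3 each; limma adjusted p = 0.00224). PARP2, which binds broken DNA, fell to 4.04, 4.23 and 5.17 TPM with BMH-21, against 12.3, 7.65 and 11.6 TPM in controls (log2 difference -1.05 ± 0.20, limma adjusted p = 0.00473). PARP1, the most abundant of them, fell as well, to 68.6 ± 3.95 TPM against 110.8 ± 12.5 TPM in controls (SD, n = 3 each; limma adjusted p = 0.00192).

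Aldehyde dehydrogenases other than ALDH3A1 gave 3 higher and 3 lower calls among 11 tested genes (median log2 difference -0.18). Over all tested genes 23.3% were called higher and 12.9% lower. Median-of-ratios scaling gave 1 higher and 6 lower calls. Without BMH-21 replicate 1 or 3 there were 0 higher calls and 1 lower call, and without control replicate 3 there was 1 higher call. ALDH6A1, a mitochondrial enzyme of valine breakdown, rose to 6.87 ± 0.374 TPM with BMH-21, against 4.22 ± 1.065 TPM in controls (SD, n = 3 each; limma adjusted p = 0.0282), and lost the call in 9 of 13 alternatives. ALDH16A1 fell to 16.49 ± 1.502 TPM with BMH-21, against 33.8 ± 6.86 TPM in controls (SD, n = 3 each; limma adjusted p = 0.00273). ALDH1A3, a retinoic acid enzyme and the most abundant of the family, was at 198.0 ± 4.55 TPM with BMH-21 and 194.8 ± 29.04 TPM in controls (SD, n = 3 each; limma adjusted p = 0.830).

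Conjugating and reducing enzymes had 2 rises and 5 falls among 19 tested genes (median log2 difference 0.05), and 1 rise and 7 falls after median-of-ratios scaling. Over all tested genes 23.3% rose and 12.9% fell. Rises numbered 1 without BMH-21 replicate 1 or control replicate 3, and 4 without control replicate 2. GSTM1, a glutathione transferase, fell to 27.6, 28.6 and 26.5 TPM with BMH-21, against 50.7, 52.0 and 52.8 TPM in controls (log2 difference -0.89 ± 0.09, limma adjusted p = 0.000210). GSTP1, the most abundant of them, fell to 909 ± 31.4 TPM, against 1315 ± 186 TPM in controls (SD, n = 3 each; limma adjusted p = 0.00958). The rise of UGT2B7, a glucuronosyltransferase (limma adjusted p = 0.0184), was lost in 6 of the 12 alternatives that tested it, by median-of-ratios scaling (0.0563) and without BMH-21 replicate 1 (0.0598) or 3 (0.0716) or control replicate 3 (0.0581) among them.

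**Figure D4:**
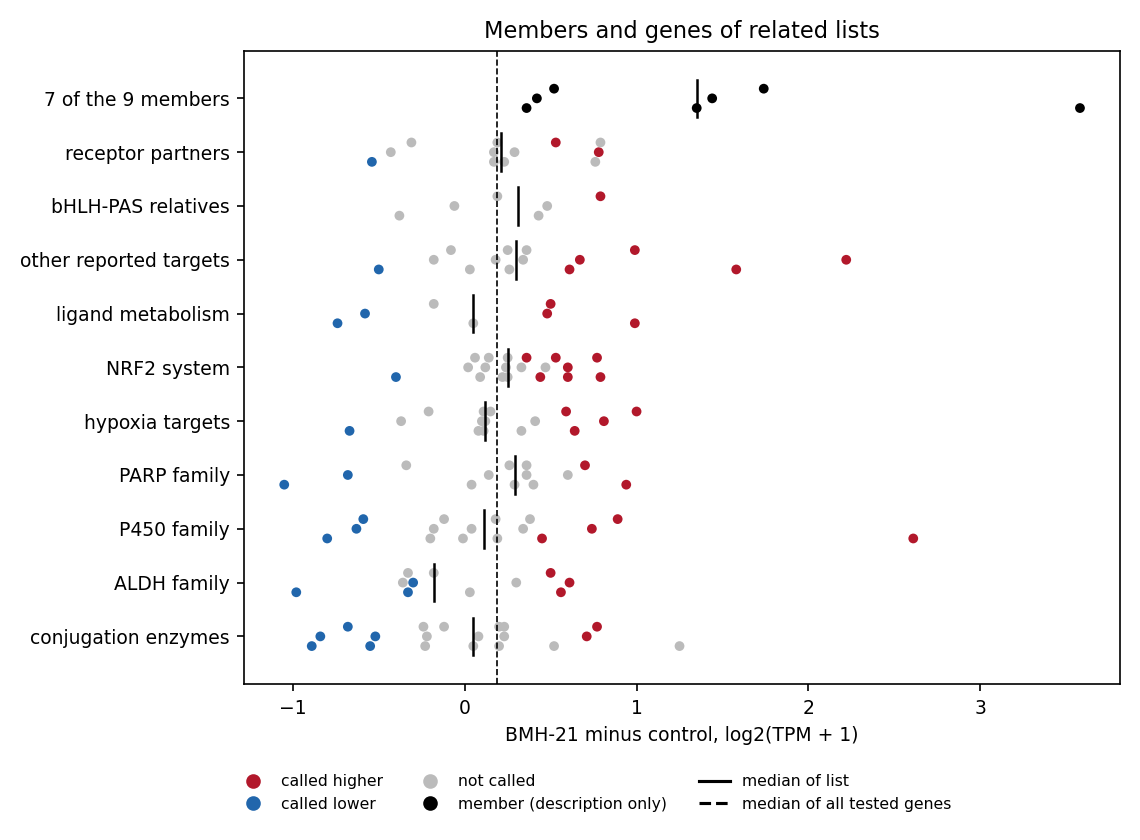
Log2 difference, BMH-21 minus control, for each tested gene of 10 related lists (rows), coloured by its call, with the 7 fitted members in black and without a test. Vertical bars are list medians, from -0.18 to 0.31, against 1.35 for the members and 0.19 for all tested genes (dashed line).

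The melanoma label was checked against markers. The neural crest factor gene SOX10 (396.8 to 713.6 TPM over all libraries), MIA, S100A1 and S100B were abundant, whereas MITF lay between 0.979 and 1.82 TPM, MLANA was listed at 0 and TYR and DCT did not exceed 0.116 TPM. The pigment gene PMEL was low as well, at 1.62, 1.81 and 1.67 TPM with BMH-21 and 0.783, 0.600 and 1.04 TPM in controls. It passed the level filter through its BMH-21 values. MIA, the most abundant marker, averaged 1034 ± 63.2 TPM with BMH-21 and 1246 ± 164 TPM in controls (SD, n = 3 each; limma adjusted p = 0.107), and was called lower without control replicate 1 (0.0200). The adhesion gene MCAM fell to 82.0 ± 7.38 TPM, against 149.6 ± 11.4 TPM in controls (SD, n = 3 each; limma adjusted p = 0.000484). S100B rose to 111.1 ± 0.724 TPM, against 77.5 ± 2.71 TPM in controls (SD, n = 3 each; limma adjusted p = 0.00171). S100A1 rose to 411.1 ± 9.915 TPM, against 316.9 ± 29.69 TPM in controls (SD, n = 3 each; limma adjusted p = 0.0134). With PMEL, 3 of 9 tested melanoma markers were called higher and 1 lower, beside 23.3% and 12.9% of all tested genes. Higher calls numbered 2 with median-of-ratios scaling and 1 without BMH-21 replicate 1 or 3. Of 13 measured markers of other cell types, 11 lay below the level filter. Their summed level was 17.9 to 21.5 TPM with BMH-21 and 42.0 to 43.5 TPM in controls. CD68, a lysosomal protein gene of macrophages that other cells express too, made up most of it and fell to 14.2 ± 1.35 TPM, against 36.8 ± 1.22 TPM in controls (SD, n = 3 each; limma adjusted p = 8.12e-05). The other marker above the filter was the keratin gene KRT14. It averaged 3.67 ± 0.711 TPM with BMH-21 and 3.54 ± 1.44 TPM in controls (SD, n = 3 each; limma adjusted p = 0.823). In every library KRT14 lay above MITF and PMEL. ALB, a hepatocyte marker, was listed at 0 in every library.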

How the data were processed

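RNA was extracted with Trizol, depleted of ribosomal RNA and copied with random hexamers, per the labels' protocols, although the labels also name polyadenylated RNA. The authors deposited TPM per gene symbol for 6 libraries. STAR and Salmon on GRCh38 are named in the submitters' processing notes, with version, annotation and strand setting not given in the sources used here. These values are relative, so a gene's value depends on all others in its library, and they keep no read totals, so no counting error is given. Genes above 0 numbered 19326 to 19867 in BMH-21 and 18268 to 18767 in control libraries.

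All 12481 genes with a mean of at least 1 TPM were fitted together with limma 3.58.1 in R 4.3.3 on log2(TPM + 1), with an intensity-dependent prior, two-sided tests and Benjamini-Hochberg adjustment over all of them, and called at an adjusted p under 0.05. In total 4519 (36.2%) were called. The procedure was tested on simulated data first. The members, the 12 lists and the tests were chosen with earlier results of these data known. Members are counted in no list, and 8 genes stand in 2 lists (SLC7A5, KYNU, NFE2L2, IDO1, ALDH1A3, CYP2S1, UGT1A1, UGT1A6). Genes named are all members, and, from each list, the called genes that rose and fell most and the most abundant gene, while in the partner, relative and reported target lists any gene with a mean of at least 1 TPM could be named, and the 5 genes most like CYP1A1. CYP2S1, PRDM1, CYP4F2, CYP2E1, CYP2U1, UGT1A1, UGT1A6, the silent tryptophan enzymes and the markers were named after their values were seen. Some genes of the lists are counted but not reported here by name. Sequences are from RefSeq (GRCh38.p14), searched on both strands in the 250 bases before and 50 after a start. Alternatives were a pseudocount of 0.1, no filter, a filter at 5 TPM, median-of-ratios and quantile scaling, a replicate block and leaving out each library. Leaving out both number 2 libraries was added after seeing the data. Python 3.11.15 was used for summaries.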

Additional observations from a re-analysis of the deposited data

How the results depend on the processing

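All fitted members kept a positive difference under each of the 13 alternatives in which they were fitted. For CYP1A1 the log2 difference was 3.77 with a pseudocount of 0.1, 3.40 with median-of-ratios scaling and 3.48 with quantile normalization, and from 3.54 to 3.65 with 1 library left out. Called genes over the whole table numbered 4519, and from 2796 to 4809 with 1 library left out. The lowest counts were those without BMH-21 replicate 1 (2796) and BMH-21 replicate 3 (2885). Without both number 2 libraries 5845 genes were called. Returning to the fit of all libraries, the 4519 calls are split by direction next. Higher calls made up 64.4% of these 4519, 44.2% after median-of-ratios scaling and 51.0% after quantile normalization. Other reported targets called higher numbered 5, and 3 with a filter at 5 TPM, with median-of-ratios scaling and with quantile normalization, and from 3 to 5 with 1 library left out. Those called lower numbered 1, and 2 without a filter, 0 with the replicate block and from 0 to 1 with 1 library left out. Same-numbered libraries of the 2 groups did not deviate together (correlations -0.0449, -0.340 and -0.0779 across genes), and no BMH-21 library correlated best with the control of its own number. With the replicate block 3223 genes were called. The core motif was in 36.5% of promoters over 300 bases and in 32.2% over the 250 before the start. The cause of these changes was not tested. Low members are limited by unknown depth.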
